A study of Mus musculus with 6 samples.

Results

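Glycerophosphodiester phosphodiesterases are a small gene family, and 5 of its mouse genes are described here, Gdpd5, Gdpd1, Gdpd2, Gdpd3 and Gde1, out of 19938 genes measured. A gene was taken when its row of the deposited table carried exactly 1 gene symbol and that symbol was one of the 5. Each of the 5 had 1 row, so no choice between rows was needed. Gdpd5 was chosen by its measured log2 difference between treated and control arrays in earlier results of these data, and the other 4 genes were added as its relatives. The treatment difference of Gdpd5 is therefore a description without a test.

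The treated cultures received 1,25-dihydroxyvitamin D3 (1,25D), the hormonally active form of vitamin D, at 10 nM, and the control cultures received vehicle (3 arrays in each group, numbered replicate 1 to 3). Both groups were mixed neuron and glia cultures grown out of OF1 mouse brain taken at embryonic day 17, differentiated in fetal calf serum and then held in serum-free medium without growth factors. The labels call the arrays biological replicates, and nothing in them says whether equal numbers mark a shared litter or culture, so a p-value here reflects only how these samples spread, which may be partly technical. The comparison asks which genes respond to 1,25D in such cultures, and the sources used here do not state how long treatment lasted.

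Enzymes of this family cut glycerophosphodiesters, the water-soluble remains of membrane phospholipids, into glycerol 3-phosphate and a free head group such as choline, ethanolamine or inositol. Some members act instead on lipids that keep an acyl chain, or on the glycosylphosphatidylinositol (GPI) anchor that holds certain proteins on the cell surface. Gdpd5, also called GDE2, is a multi-pass membrane protein with its catalytic domain outside the cell. In mouse and chick spinal cord it is known for cleaving the GPI anchor of Reck and driving motor neuron differentiation, and in mouse kidney cells for breaking down glycerophosphocholine.

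Values are array intensities on the authors' linear scale, and means and differences are on the log2 scale of that intensity. A probe set's brightness also depends on its probes, so levels are compared between arrays for 1 gene. Between genes, brightness is used to call a gene dim against the lower quartile of genes and to sum marker lists. Arrays had a median gene at 240.4 to 252.9 and a lower quartile at 103.5 to 116. The labelled cell types were checked through their markers. The astrocyte genes Gfap and Aqp4 had mean log2 intensities of 11.52 and 12.49 in 1,25D cultures, against 11.61 and 12.72 in controls. The neuronal genes Map2 and Tubb3 had 10.65 and 7.36 in 1,25D cultures, against 10.94 and 7.41 in controls. Of other cell types, the oligodendrocyte lineage genes Olig1 and Sox10 had 9.58 and 8.18 in 1,25D cultures against 9.86 and 8.10 in controls, and the ciliated ependymal genes Foxj1 and Dnah5 had 10.24 and 7.42 against 10.31 and 7.76. The microglial genes Aif1 and Itgam had 6.15 and 6.16 in 1,25D cultures against 6.03 and 6.14 in controls, which is dim. The endothelial genes Pecam1 and Cdh5 had 6.85 and 7.01 against 6.88 and 6.84, near the lower quartile of genes (log2 6.69 to 6.86). The fibroblast collagens Col1a1 and Col1a2 had 9.75 and 8.42 against 9.33 and 8.46.

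Gdpd5 had intensities of 1304, 1251 and 987.2 in 1,25D replicates 1, 2 and 3, against 762, 676 and 557 in control replicates 1, 2 and 3. All 3 treated arrays lay above all 3 control arrays, and in both groups replicate 3 was the lowest. The mean log2 intensity was 10.19 ± 0.22 in 1,25D cultures and 9.36 ± 0.23 in controls (SD, n = 3 each), a difference of 0.83 or 1.78-fold. The lowest treated array was 0.37 above the highest control on the log2 scale.

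Within equal replicate numbers the log2 difference of Gdpd5 was 0.78, 0.89 and 0.83 for numbers 1, 2 and 3. These 3 differences had an SD of 0.057, and 12.5% of genes had a smaller one. Ordered by the size of the rise, Gdpd5 stood at place 40 of 19938 genes over all arrays, and at places 96, 34 and 82 within numbers 1, 2 and 3. At least 1.5-fold higher within each of the 3 numbers were 39 genes (0.196%), with Gdpd5 among them and 0 of its 4 relatives. The SE of the difference was 0.16 without the replicate number in the fit and 0.076 with it. These are the values that chose the gene. It had a limma adjusted p of 0.67 without the replicate number as a block and 0.029 with it, where 5 genes (0.0251%) and 18 genes (0.0903%) passed as higher. Nothing is inferred from that call here.

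**Figure D1:**
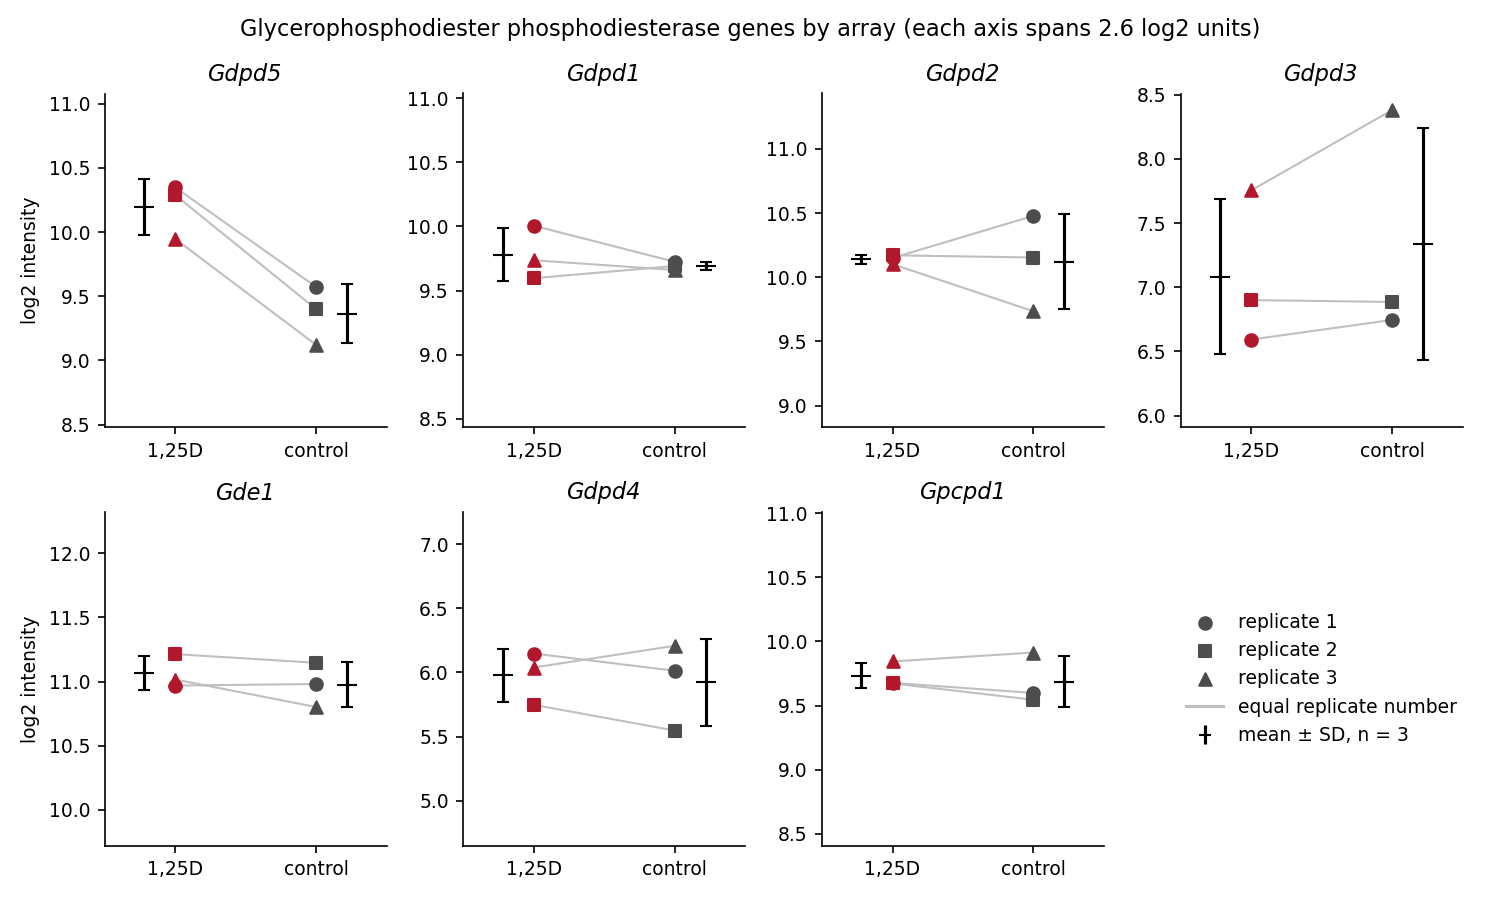
Log2 intensity (vertical axis, 2.6 units in every panel) of the 5 members and of Gdpd4 and Gpcpd1 on each array, with 1,25D arrays in red on the left and control arrays in grey on the right. Grey lines join equal replicate numbers and black bars give the mean ± SD (n = 3). The groups part in the panel of Gdpd5 alone, the gene chosen for its difference. Replicate 3 stands high in both groups for Gdpd3.

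Fewer cells of a type and less RNA per cell cannot be told apart in such bulk samples, so the summed intensity of each marker list was set beside Gdpd5. In 0 of the 7 lists did the sums of the 1,25D and control arrays part completely. Within equal replicate numbers, however, the neuron sum was lower with 1,25D at all 3 numbers and the endothelial and pericyte sum higher at all 3, while the other 5 lists went both ways. Neuron markers summed to between 2606 and 4232 in 1,25D arrays and between 3182 and 4507 in control arrays, and astrocyte markers to between 28752 and 38417 against 29341 and 38285. Endothelial and pericyte markers summed to between 1278 and 1578 in 1,25D arrays and between 1077 and 1287 in control arrays. A sum follows its brightest genes. In that list Pdgfrb had 610, 760 and 532 in 1,25D replicates 1 to 3, against 441, 582 and 351 in controls. Map2 led the neuron sum, with 1108, 1926 and 1957 in 1,25D replicates 1 to 3, against 1590, 2418 and 1982 in controls. At number 3 Stmn2 had 543 against 837. The difference of Map2 at number 2 was larger than that of the whole neuron sum. Likewise the difference of Pdgfrb at number 1 was larger than that of its whole list. By log2 difference 6 of 7 endothelial and pericyte, 7 of 7 microglia and 4 of 5 meningeal fibroblast markers were above 0. For neuron, astrocyte, oligodendrocyte lineage and ependymal markers the counts were 3 of 10, 0 of 8, 3 of 7 and 1 of 6. The median log2 difference of the 7 lists ran from -0.25 (ependymal markers) to 0.10 (microglia markers), with -0.04 for neuron and -0.08 for astrocyte markers, against 0.01 over all genes. Leaving out single arrays turned the sign in 4 of the 7 lists. The medians then ran from -0.25 to 0.05 for neuron and -0.27 to 0.04 for astrocyte markers. They kept their sign for ependymal (-0.47 to -0.04), microglia (0.01 to 0.16) and endothelial and pericyte markers (0.05 to 0.15). Across the 7 lists limma called 0 markers in either fit, without or with the replicate block. At an unadjusted p under 0.05 there were 2 of 50 markers without the block (4%, against 1.48% of all genes), the neuronal Rbfox3 at -0.34 and the pericyte gene Pdgfrb at 0.48. With the block there were 6 (12%, against 5.78% of all genes), which added Map2 at -0.29, the astrocyte gene Aldh1l1 at -0.27, Olig1 at -0.28 and Col1a1 at 0.42. The part of cell content in the Gdpd5 difference was not tested.

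The other surface enzyme among the members is Gdpd2, also called GDE3, known from mouse osteoblasts and for cleaving glycerophosphoinositol. It had intensities of 1136, 1153 and 1099 in 1,25D replicates 1, 2 and 3, against 1427, 1139 and 852 in control replicates 1, 2 and 3. The treated arrays lay close together and inside the range of the controls. The mean log2 intensity was 10.14 ± 0.04 in 1,25D cultures and 10.12 ± 0.37 in controls (SD, n = 3 each). The difference was 0.02 (95% interval -0.39 to 0.43, limma adjusted p = 1.00), and it was -0.33, 0.02 and 0.37 within numbers 1, 2 and 3. The direction thus differed between replicate numbers, and the mean difference was -0.18 without control replicate 3.

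Gde1 is a membrane enzyme that acts on glycerophosphoinositol and, in mouse brain extracts, releases anandamide from its glycerophospho precursor. Its intensities were 2005, 2376 and 2072 in 1,25D replicates 1, 2 and 3, against 2022, 2268 and 1786 in control replicates 1, 2 and 3. The groups overlapped, and replicate 2 was the highest array of each group. The log2 difference was 0.09 (95% interval -0.20 to 0.38, limma adjusted p = 1.00), with -0.01, 0.07 and 0.21 within numbers 1, 2 and 3.

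Gdpd1 and Gdpd3, also called GDE4 and GDE7, are lysophospholipase D enzymes, which release lysophosphatidic acid from lysophospholipids. Gdpd1 had intensities of 1028, 774 and 853 in 1,25D replicates 1, 2 and 3, against 846, 827 and 809 in control replicates 1, 2 and 3. Here the controls lay close together and the treated arrays on both sides of them. The log2 difference of Gdpd1 was 0.09 (95% interval -0.20 to 0.37, limma adjusted p = 1.00), and it was 0.28, -0.09 and 0.08 within numbers 1, 2 and 3. Without 1,25D replicate 1 it was -0.03.

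Gdpd3 had intensities of 96.5, 119.4 and 216 in 1,25D replicates 1, 2 and 3, against 107.3, 118.3 and 333 in control replicates 1, 2 and 3. In replicates 1 and 2 these values were near the lower quartile of genes, where robust multi-array averaging (RMA) compresses differences, and replicate 3 was the highest array in both groups. The log2 difference was -0.25 (95% interval -1.33 to 0.82, limma adjusted p = 1.00). It was -0.15, 0.01 and -0.63 within numbers 1, 2 and 3, and 0.27 without control replicate 3. With the replicate block the 95% interval was -0.57 to 0.06 (limma adjusted p = 0.89).

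Gdpd1, Gdpd2, Gdpd3 and Gde1 gave 0 of 4 calls between 1,25D and control in limma, without or with the replicate block. Over all genes 0.0251% and 0.0903% were called. At an unadjusted p under 0.05 there were again 0 of 4 in either fit, where all genes gave 1.48% and 5.78%. With such shares 0 of 4 says little about these genes. The groups failed to overlap for 0 of these 4 genes, where 4.15% of all genes had groups that did not overlap. The upper 95% limits of the log2 difference were 0.37, 0.43, 0.82 and 0.38 for Gdpd1, Gdpd2, Gdpd3 and Gde1 without the block, and 0.32, 0.34, 0.06 and 0.29 with it, so a rise within these limits remains possible. Whether Gdpd5 responded differently from its relatives was not tested, since Gdpd5 was chosen for its difference.

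**Figure D2:**
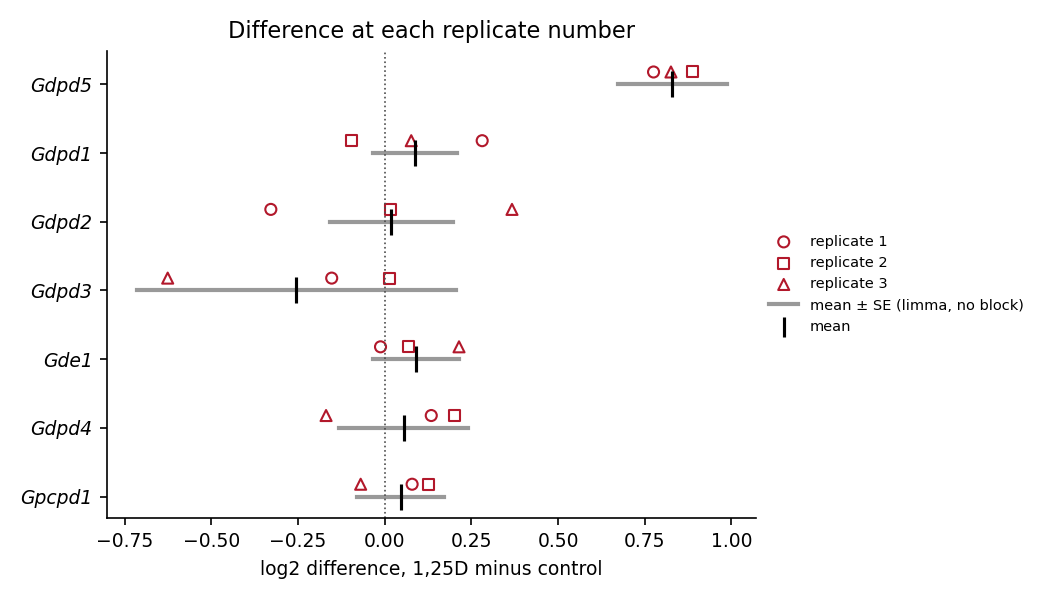
Log2 difference, 1,25D minus control (horizontal axis), for the 5 members and for Gdpd4 and Gpcpd1. Open symbols give the difference at each replicate number, the black tick the mean and the grey bar its SE in the fit without the block. The 3 symbols of Gdpd5, chosen for its difference, lie between 0.78 and 0.89. Those of Gdpd1, Gdpd2, Gdpd3 and Gde1 lie on both sides of 0.

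The family has 2 further genes in the table. Gpcpd1, also called GDE5, is a cytosolic enzyme that breaks down glycerophosphocholine. It had intensities of 818, 816 and 919 in 1,25D replicates 1, 2 and 3, against 775, 747 and 964 in control replicates 1, 2 and 3, a log2 difference of 0.05 ± 0.13 (SE, limma adjusted p = 1.00). Gdpd4, a close relative of Gdpd5 and Gdpd2, was dim, with 70.9, 53.7 and 65.7 in 1,25D replicates 1, 2 and 3, against 64.6, 46.8 and 73.9 in control replicates 1, 2 and 3. Its log2 difference was 0.06 ± 0.19 (SE, limma adjusted p = 1.00), and values this low, under the lower quartile of genes, say little about a response. For both genes the groups overlapped and the difference was positive at numbers 1 and 2 and negative at number 3.

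How the members varied with the replicate number was tested next, a comparison that is separate from the treatment difference in this balanced design. In a limma F test over the replicate terms, with treatment in the fit, 345 genes (1.73%) passed at an adjusted p under 0.05. Gdpd3 passed among them (adjusted p = 0.037). Its mean log2 intensity was 6.67, 6.89 and 8.07 at numbers 1, 2 and 3, so both replicate 3 arrays together were 2.44-fold above the mean of the others. Gdpd1, Gdpd2 and Gde1 did not pass, with adjusted p of 0.36, 0.26 and 0.21. Gdpd5 is left out of this test, because it was chosen with a fit that shares the test's error term. Its mean log2 intensity was 9.96, 9.84 and 9.53 at numbers 1, 2 and 3.

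The Gdpd3 call changed with the arrays, rows and variance model used. It was lost without replicate 3 (adjusted p = 0.17), where numbers 2 and 1 differed by 0.22 on the log2 scale, and kept without replicate 1 (0.0024). It was also lost without replicate 2 (0.15), although numbers 3 and 1 still differed by 1.40 (unadjusted p = 3.6e-04), each omission leaving 2 pairs. The call was further lost when all rows of the table were tested (0.088) and without moderation of the variance (0.35). In 0 of the 7 marker lists did the sums of both replicate 3 arrays lie outside those of the other arrays. Both replicate 1 arrays did so in 2 lists, lowest for neuron and highest for microglia markers. Both replicate 2 arrays did so in 2, highest for astrocyte and oligodendrocyte lineage markers. Single markers also moved with the replicate number. Of 50 markers 3 (6%, against 1.73% of all genes) passed the same F test, Snap25, Stmn2 and Olig1 (adjusted p = 0.037 each). Olig1 was highest at replicate 3 in both groups, as Gdpd3 was, with intensities of 514, 844 and 1025 in 1,25D replicates 1, 2 and 3, against 662, 900.3 and 1343 in control replicates 1, 2 and 3. The neuronal gene Stmn2 likewise had 300.4, 237 and 543 in 1,25D replicates 1, 2 and 3, against 300.4, 253 and 837 in control replicates 1, 2 and 3. Its value was identical in both replicate 1 arrays, which also enters its F test. Snap25, also neuronal, was instead lowest at replicate 1 in both groups. It had 142, 313 and 356 in 1,25D replicates 1 to 3, against 164, 340 and 301 in controls. The part of cell content in the Gdpd3 difference was not tested. Ependymal markers summed to 2299, 2908 and 2509 in 1,25D replicates 1, 2 and 3, against 3485, 3358 and 1976 in control replicates 1, 2 and 3.

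Of 76 genes listed for the pathways around the family, 69 were measured, and limma called 0 of them in either fit (0.0251% and 0.0903% of all genes were called). At an unadjusted p under 0.05 there were 4 of 69 without the block and 10 with it, 5.80% and 14.5%, where all genes gave 1.48% and 5.78%. The 4 were Cnr1, Agpat1, Slc18a3 and Dagla. The median log2 difference of the 69 genes was 0.03, against 0.01 over all genes, and 41 of them were above 0. In 3 of the 69 genes, Cnr1, Agpat1 and Slc18a3, all 3 treated arrays lay above all controls (4.35%, against 2.63% of all genes). With single arrays left out the median changed sign in 7 of the 8 lists below, all but glycerol 3-phosphate metabolism, so the medians give no firm direction. Listed genes were chosen with earlier results of these data known, and no claim that they stand apart is made from these shares.

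**Figure D3:**
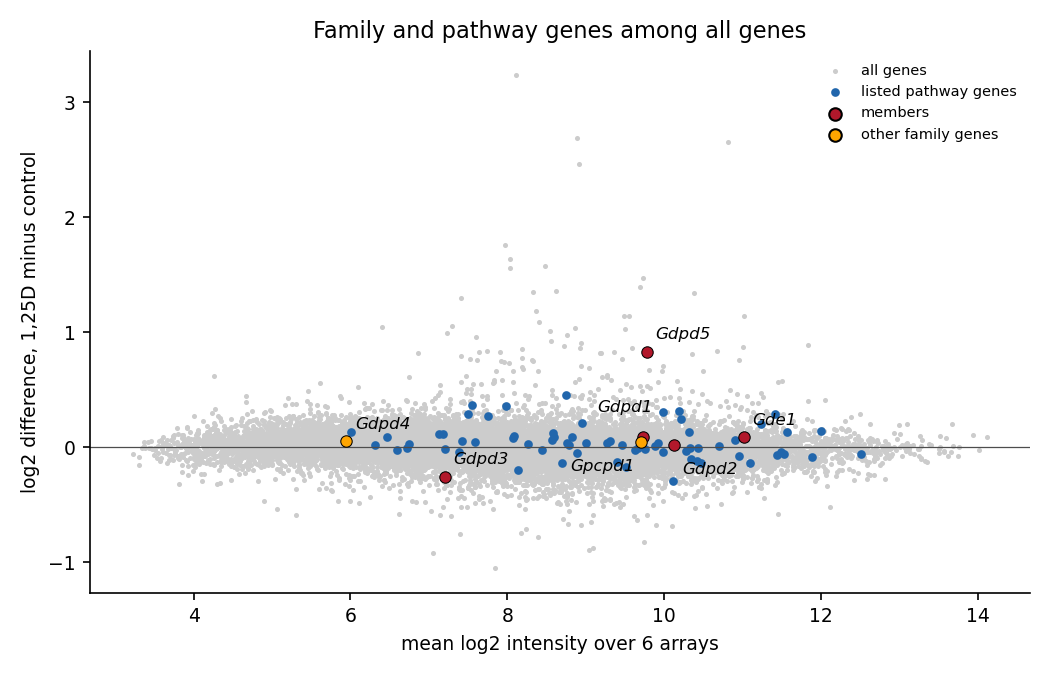
Log2 difference, 1,25D minus control (vertical axis), against mean log2 intensity over the 6 arrays (horizontal axis) for 19938 genes in grey. Red points are the 5 members, orange points Gdpd4 and Gpcpd1, and blue points the other listed pathway genes. Gdpd5, chosen for its difference, stands at 0.83, while the other family genes lie between -0.25 and 0.09.

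Choline is the head group freed from glycerophosphocholine. In the list of glycerophosphocholine and choline metabolism, 11 of 17 measured genes were above 0, 0 were called, and the median log2 difference was 0.03. The smallest unadjusted p-values were those of Pla2g15, a lysosomal phospholipase, at 0.09 ± 0.09, and Slc44a2, a choline transporter-like protein, at -0.13 ± 0.14 (SE). Pla2g15 had the same value in both replicate 1 arrays, which fixes that difference at 0. Among genes of ethanolamine and inositol head groups, 3 of 7 were above 0 and the median was -0.02. Slc5a3, a myo-inositol transporter, had -0.13 ± 0.12, and Pcyt2, which makes the activated form of ethanolamine, 0.21 ± 0.22 (SE).

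The enzymes and receptor of N-acylethanolamines and endocannabinoids, the lipids that Gde1 and Gdpd1 can help make, had 6 of 9 genes above 0 and a median log2 difference of 0.10 (-0.05 without control replicate 3). Cnr1, the cannabinoid receptor of brain, had intensities of 222, 227 and 193 in 1,25D replicates 1, 2 and 3, against 154, 171 and 171 in control replicates 1, 2 and 3. The groups did not overlap, and the log2 difference was 0.37 ± 0.11 (SE, limma adjusted p = 1.00 without the block and 0.58 with it). Dagla, which makes the endocannabinoid 2-arachidonoylglycerol, had 311, 296 and 254.0 in 1,25D replicates 1, 2 and 3, against 254.5, 229 and 190 in control replicates 1, 2 and 3. Its highest control lay above its lowest treated array, while the difference was 0.29, 0.37 and 0.42 within numbers 1, 2 and 3 (limma adjusted p = 1.00 and 0.42 with the block). Neither gene passed.

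Glycerol 3-phosphate, the other product of the reaction, enters phospholipid synthesis. Its list had 7 of 9 genes above 0, a median log2 difference of 0.13, and 0 calls. Agpat1, which adds an acyl chain to lysophosphatidic acid, had intensities of 1330, 1299 and 1259 in 1,25D replicates 1, 2 and 3, against 1139, 1069 and 1060.1 in control replicates 1, 2 and 3. The groups did not overlap, and the difference was 0.22, 0.28 and 0.25 within numbers 1, 2 and 3, a small and even one (limma adjusted p = 1.00 and 0.68 with the block). Gpd2, a mitochondrial glycerol 3-phosphate dehydrogenase, had 0.32 ± 0.15 (SE), with -0.13 within number 3. Gpd1, its cytosolic counterpart, had the highest log2 difference in the 8 pathway lists, 0.45, and did not pass (limma adjusted p = 1.00 and 0.28 with the block).

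GPI-anchored proteins that GDE2 and GDE3 are known to cleave, with partners of that pathway, had 7 of 12 genes above 0, 0 calls and a median log2 difference of 0.02. Gpc3, a glypican, had 0.28 ± 0.14 and Gpc2, another glypican, 0.08 ± 0.10 (SE). Glycerophosphocholine is also an osmolyte of kidney cells. Among osmolyte and hypertonicity genes 2 of 7 were above 0, with a median of -0.04, and Sgk1, a kinase that responds to cell stress, had -0.20 ± 0.11 and Aqp1, a water channel, 0.11 ± 0.09 (SE). That median was 0.10 without control replicate 3.

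Among genes of motor neuron differentiation, the programme in which Gdpd5 was first studied, 3 of 7 were above 0 and the median was -0.01. Slc18a3, the vesicular acetylcholine transporter, had intensities of 213, 206 and 182 in 1,25D replicates 1, 2 and 3, against 180.1, 157 and 156 in control replicates 1, 2 and 3. The groups did not overlap, by a narrow margin, and the gene did not pass (log2 difference 0.29 ± 0.11, SE, limma adjusted p = 1.00 and 0.65 with the block). Mnx1, a transcription factor of motor neurons, was dim at 6.07 in 1,25D cultures and 5.94 in controls.

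**Figure D4:**
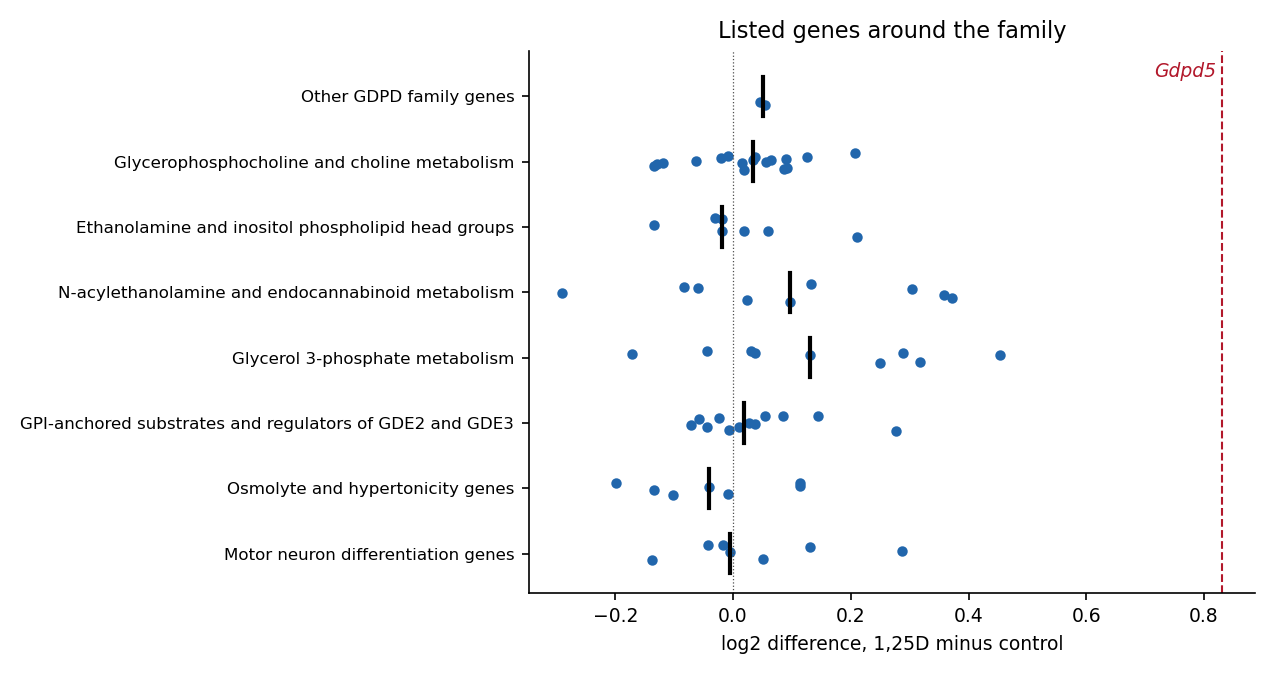
Log2 difference, 1,25D minus control (horizontal axis), of each measured gene (blue points) in the 8 lists around the family, with the median of each list as a black bar and Gdpd5 as a red dashed line. The medians lie between -0.04 and 0.13, and the highest single gene, Gpd1, reaches 0.45. Gdpd5, at 0.83, was chosen for its difference, so its distance from the listed genes is no test.

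The genes next to Gdpd5 on its chromosome were looked at for a shared difference, a choice made after the data were seen. In the RefSeq annotation of GRCm38.p6 the nearest measured protein-coding genes were Mogat2, Map6 and Serpinh1 on one side and Klhl35, Rps3 and Arrb1 on the other. In either fit limma called 0 of these 6. Over all genes 0.0251% were called without the block and 0.0903% with it, so this count says little about the neighbours. Serpinh1, a collagen chaperone, was the gene listed directly before Gdpd5, with a log2 difference of 0.07 ± 0.10, and Klhl35 directly after it, with 0.04 ± 0.11 (SE). The largest rise among the 6 was that of Rps3, a ribosomal protein, at 0.21 ± 0.22, and the lowest value that of Arrb1, a beta-arrestin, at -0.15 ± 0.22 (SE).

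The genes most like Gdpd5 were ordered by the Pearson correlation of log2 intensity over the 6 arrays, a measure that the treatment difference and the replicate numbers both feed. The 5 highest were Slc43a3 (r = 0.992), Sfrp2 (0.990), Ptprn2 (0.990), Ism1 (0.987) and Derl3 (0.985). Slc43a3, a membrane transporter, had intensities of 1702, 1614 and 1037 in 1,25D replicates 1, 2 and 3, against 759, 528 and 334 in control replicates 1, 2 and 3. Sfrp2, a secreted modulator of Wnt signalling, had 316, 277 and 229 in 1,25D replicates 1, 2 and 3, against 176.9, 132.5 and 115.4 in control replicates 1, 2 and 3. All 5 genes shared with Gdpd5 the lowest value at replicate 3 in each group, a trait that the choice by correlation favours. Ptprn2, a protein of secretory vesicles, Ism1, a secreted protein, and Derl3, a protein of endoplasmic reticulum quality control, had smaller log2 differences of 0.37, 0.23 and 0.57. For the relatives r with Gdpd5 was 0.43 for Gdpd1, 0.35 for Gdpd2, 0.48 for Gde1 and -0.56 for Gdpd3, over the same 6 arrays. Since the 5 genes were picked as the highest of all genes, the relatives' values are not compared with theirs.

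**Figure D5:**
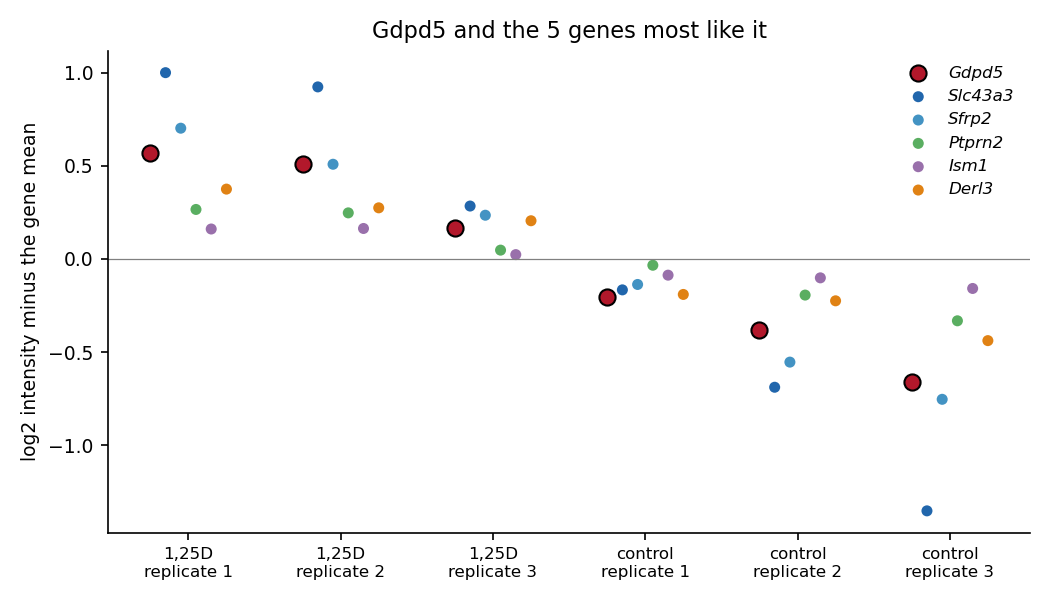
Log2 intensity minus the mean of each gene over the 6 arrays (vertical axis) for Gdpd5 (large red points) and the 5 genes with the highest correlation to it, by array, with 1,25D arrays on the left and control arrays on the right. All points of the 1,25D arrays lie above 0 and all points of the control arrays below it.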

How the data were processed

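The deposited intensity values are per transcript cluster on a linear scale, as the file shows (8.05 to 22019), and the submitters' processing notes name RMA and Affymetrix Expression Console for the authors' normalisation, with versions and filters not given in the sources used here. RMA gives no detection call. For arrays the number of replicates limits the precision.

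Of 35556 rows, 21789 had 1 gene symbol in GEO's platform annotation, 1621 several and 12146 none there. For 999 genes with several rows the brightest was used. Log2 values of the 19938 genes were fitted with limma 3.58.1 in R 4.3.3 (lmFit, eBayes), 1,25D minus control, without a block. Adjusted p is Benjamini-Hochberg over all genes, threshold 0.05. The fits were run on data simulated from the fitted block model. That checks the code and not whether the model suits these arrays. An exact permutation test of 3 arrays against 3 cannot go below 0.1.

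Equal replicate numbers were checked for pairing. Deviations from the group means correlated at 0.51, 0.65 and 0.46 for numbers 1, 2 and 3, against -0.51 to -0.01 for unequal numbers. The deviations of a group sum to 0, so these correlations are not independent of each other. The numbers were taken to pair the arrays, on the data's evidence and not the labels'. Both replicate 1 arrays held identical values for 1094 genes (5.49%), none of them a member, where any other 2 arrays shared at most 19. The cause was not tested. These genes feed the correlation at number 1. Pla2g15, Cdh5, Klhl35 and Stmn2 were among them, so their differences at number 1 are fixed at 0.

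Members and lists were chosen with earlier results of these data known. Named genes were the family, in each pathway list the called genes or else the 2 smallest p-values, the 5 genes most like Gdpd5 and the first 2 markers of each list. The neighbouring genes, Gpd1 and the markers named by an unadjusted p or the F test were added after the data were seen. In all 8 listed genes, markers included, were not analysed here for want of a row with 1 symbol. Alternatives covered the block, scaling, dim genes, rows, variance model and omission of arrays.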

Additional observations from a re-analysis of the deposited data

How the results depend on the processing

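The log2 difference of Gdpd5 was 0.83 in the main fit and ran from 0.71 to 0.95 over the omission of single arrays. Of the 19 alternatives, several could not move it, as Gdpd5 has 1 row and the design is balanced. These were the block on all arrays, an intensity trend, no moderation, the choice of rows and the removal of dim genes. In the others it moved by less than the spread between arrays. These values describe a difference that chose the gene and do not test it. The counts of called relatives (0 of 4) and of called pathway genes (0 of 69) were 0 in all 19 alternatives each, among them the replicate block, quantile normalisation, median centring, array weights and all rows tested. The count of members that differed between replicate numbers, 1 as reported, was 0 with all rows tested, 0 without moderation, and between 0 and 1 with a replicate number left out. It was 1 after either scaling, with an intensity trend and without the lowest 25% of genes. The last 2 kinds of alternative for that count, no moderation and omission of a number, were chosen after seeing the data.

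Differences near 0 changed sign in some settings and were never called. With single arrays left out the log2 difference ran from -0.025 to 0.18 for Gdpd1, -0.18 to 0.20 for Gdpd2, -0.59 to 0.27 for Gdpd3, -0.13 to 0.20 for Gdpd4, -0.024 to 0.16 for Gpcpd1 and -0.030 to 0.35 for Pcyt2. With the replicate block and 1 number left out it was -0.0092 for Gdpd1 (without number 1), -0.16 for Gdpd2 (without number 3) and -0.017 for Gdpd4 (without number 2). With array weights Gdpd2 stood at -0.058. The cause was not tested. Without the lowest 25% of genes, Gdpd4 and Mnx1 were left out and have no value. Over the same omissions Gde1 stayed between 0.00 and 0.17. Gdpd4 and, in replicates 1 and 2, Gdpd3 were dim, which limits what their differences can show. The replicate block changed no call of a relative or pathway gene.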
